A study of Mus musculus with 4 samples.

Results

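The oxidative phosphorylation (OXPHOS) genes described here are the subunits of respiratory complexes I, III and IV and of ATP synthase (complex V), with a few of their assembly factors, from both genomes of the cell. They were chosen by symbol: every gene of the table whose name starts with Nduf, Uqcr, Cox4i, Cox5, Cox6, Cox7, Cox8, Atp5 or mt-, except Atp5o, whose values are an average over 2 gene identifiers. This gave 98 of 13772 genes. They are 75 nuclear subunit genes (36 of complex I, 8 of complex III, 17 of complex IV and 14 of complex V), 13 genes of the mitochondrial genome (7, 1, 3 and 2), 8 complex I assembly factors (Ndufaf genes) and 2 others, Cox7a2l and Atp5s. In at least 1 library, 92 of them reached 20 CPM (a gene's share of a cell's UMIs on the usual counts-per-million scale, averaged over cells). Cox4i2, Cox6b2, Ndufa4l2, Ndufaf5, Ndufaf6 and Atp5s did not.

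The study cultured muscle stem cells from skeletal muscle of wild-type C57BL/6 mice, young or aged, for 7 days on polydimethylsiloxane (a silicone elastomer) that was soft (12 kPa) or stiff (29 kPa), in medium with fetal bovine serum, and profiled single cells with a droplet kit that counts the 3 prime ends of transcripts by UMI. Each of the 4 groups, young and aged cells on soft and on stiff, is 1 library. The labels give the age only as young or aged and do not say how many mice went into a library. Library and group therefore cannot be told apart, so differences between groups are given as values with no test, and intervals cover counting error only. The series title concerns matrix stiffness and the fate of aged muscle stem cells, and the comparisons below are aged against young on each substrate and stiff against soft at each age.

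In the respiratory chain, complexes I, III and IV pass electrons from NADH to oxygen and pump protons across the inner mitochondrial membrane, and ATP synthase uses that gradient to make ATP. Complex II, which pumps no protons, is wholly nuclear-encoded, whereas the other complexes combine a few core subunits encoded by mitochondrial DNA with many nuclear-encoded ones made in the cytosol and imported. Muscle stem cells that differentiate leave a Pax7-expressing state, switch on the transcription factor Myog (myogenin) and then contractile genes such as Acta1, and mature muscle replaces several cytochrome c oxidase subunits with muscle isoforms.

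The libraries held 1333 to 1739 cells each, 5913 in all, of which 5910 were kept, with median depths of 28613 to 37082 UMIs per cell. 1 cell barcode occurred in more than 1 library. The 8 stem cell and myoblast markers summed to 4450 to 6364 CPM and the 9 myocyte markers to 27920 and 30632 in young cells against 47139 and 53557 in aged cells (soft and stiff). Endothelial markers (4 of 5 in the table) summed to at most 0.215 CPM, Schwann cell markers (3 of 4) to at most 2.48 CPM and fibro-adipogenic markers (6 of 6) to 124 to 150.1 CPM. Markers of 3 other types moved with age, and their part in the results was not tested. Immune markers (6 of 7 in the table) summed to 2.88 and 3.59 in young cells against 13.0 and 13.9 in aged cells (soft and stiff), tenocyte markers (3 of 3) to 143 and 168 in young cells against 293 and 303 in aged cells (soft and stiff), and pericyte and smooth muscle markers (3 of 4) to 65.1 and 65.4 in young cells against 32.0 and 25.7 in aged cells (soft and stiff). No listed marker in the table was at 0 in all 4 libraries, and the 2 adipocyte and 2 erythroid markers are not in the table.

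Throughout, 2 values for young or aged cells are in the order soft, stiff. The mitochondrial genes carried the highest levels of each complex. The most abundant member of complex I was mt-Nd4, a core membrane subunit, at 4320 and 4598 CPM in young cells and 4311 and 4694 CPM in aged cells. In complex III it was mt-Cytb (cytochrome b), at 6744 and 7029 CPM in young cells and 7157 and 7367 CPM in aged cells. In complex IV it was mt-Co3, a core oxidase subunit, at 9604 and 10297 CPM in young cells and 9612 and 10125 CPM in aged cells, and in complex V mt-Atp6, a subunit of the proton channel, at 8140 and 8597 CPM in young cells and 8485 and 8689 CPM in aged cells. These 4 genes differed little between libraries. UMIs at the 3 prime end count molecules, so levels of different genes are set side by side without dividing by length. This does not hold for genes that share a transcript, such as mt-Atp8 and mt-Atp6, whose UMIs do not count separate molecules.

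Aged cells carried more nuclear OXPHOS transcript than young cells, and about the same mitochondrial transcript. The 75 nuclear subunits summed to 38495 and 38866 CPM in young cells and 46804 and 49023 CPM in aged cells, and both aged libraries lay above both young ones. The 13 mitochondrial genes summed to 55390 and 57596 CPM in young cells and 56090 and 57551 CPM in aged cells, where the ages overlapped. The ratio of the nuclear to the mitochondrial sum was 0.695 and 0.675 in young cells and 0.834 and 0.852 in aged cells. A scaling factor common to all cells of a library leaves this ratio unchanged, but summing UMIs over cells does not. Of the 72 nuclear subunits measured at 20 CPM or more, 70 on soft and 69 on stiff were higher in aged cells (background 35.3% and 35.6% of all genes measured), and 34 and 36 were at least 25% higher (the inverse of that ratio is 20% lower; background 9.87% and 11.1%). The median log2 difference, aged minus young, was 0.30 on soft and 0.33 on stiff, against -0.12 and -0.13 over all genes. Scaling libraries by the median ratio of genes moved the all-gene medians up by 0.098 and 0.11, and the nuclear medians to 0.40 and 0.44.

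**Figure D1:**
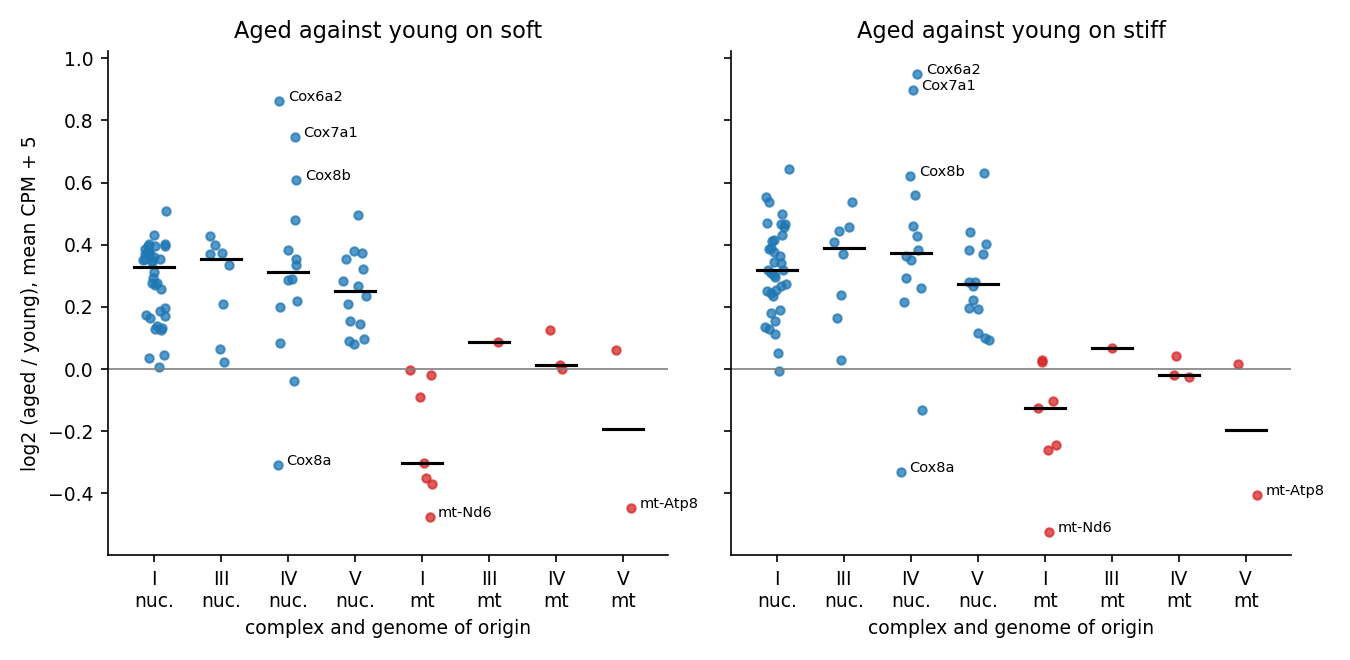
Log2 difference between aged and young cells (mean CPM plus 5) for each measured subunit gene, by complex and genome of origin (nuc., nuclear; mt, mitochondrial), on soft (left) and stiff (right). Points are genes, bars are medians, and the horizontal spread is for display. Nearly all nuclear subunits sit above 0, with Cox6a2 and Cox7a1 highest and Cox8a lowest, and the mitochondrial genes sit around or below 0.

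The age difference was spread over the 4 complexes. In complex I, 36 of 36 on soft and 35 on stiff were higher in aged cells, with median log2 differences of 0.33 and 0.32. Averaged over the substrates, its members with the largest age differences were Ndufc1, a small accessory subunit of the membrane arm, and Ndufa1, an accessory subunit needed for that arm's assembly. Ndufc1 stood at 551 and 546 CPM in young cells and 785 and 857 CPM in aged cells, a log2 difference of 0.51 on soft and 0.64 on stiff. Ndufa1 stood at 293 and 269 CPM in young cells and 378 and 396 CPM in aged cells, a log2 difference of 0.36 on soft and 0.55 on stiff. Because both genes were picked by this difference, their aged values lying above the young ones is no separate result.

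In complex III, 8 of 8 on soft and 8 on stiff were higher in aged cells, with median log2 differences of 0.35 and 0.39. Uqcr10 and Uqcrq, small subunits of the complex, differed most when the substrates were averaged. Uqcr10 stood at 613 and 601 CPM in young cells and 827 and 875 CPM in aged cells (0.43 on soft and 0.54 on stiff). Uqcrq stood at 1046 and 1070 CPM in young cells and 1382 and 1457 CPM in aged cells (0.40 on soft and 0.44 on stiff). In complex V, 14 of 14 on soft and 14 on stiff were higher in aged cells, with median log2 differences of 0.25 and 0.27. Atp5e, the epsilon subunit of the rotating central stalk, stood at 1225 and 1204 CPM in young cells and 1727 and 1867 CPM in aged cells, a log2 difference of 0.49 on soft and 0.63 on stiff. Atp5l, subunit g of the membrane part, stood at 996 and 1008 CPM in young cells and 1297 and 1370 CPM in aged cells (0.38 on soft and 0.44 on stiff).

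Complex IV had the widest range. There, 12 of 14 on soft and 12 on stiff were higher in aged cells, with median log2 differences of 0.31 and 0.37. The 3 muscle isoforms led. Cox6a2, the heart and skeletal muscle form of subunit VIa, stood at 437 and 509 CPM in young cells and 798 and 988 CPM in aged cells, and its ratio of summed UMIs, aged to young, was 1.96 (95% interval 1.92 to 1.99) on soft and 1.99 (95% interval 1.96 to 2.02) on stiff. Cox7a1, the muscle form of subunit VIIa, stood at 44.9 and 47.4 CPM in young cells and 78.6 and 92.5 CPM in aged cells, with ratios of 1.84 (95% interval 1.75 to 1.94) and 2.02 (95% interval 1.92 to 2.12). Cox8b, the muscle form of subunit VIII, stood at 263 and 302 CPM in young cells and 403 and 467 CPM in aged cells, with ratios of 1.56 (95% interval 1.53 to 1.60) and 1.56 (95% interval 1.53 to 1.59). All 3 were higher in both aged libraries than in both young ones. The ubiquitous partners differed among themselves. Cox7a2, the partner of Cox7a1, stood at 817 and 835 CPM in young cells and 939 and 1001 CPM in aged cells, a log2 difference of 0.20 on soft and 0.26 on stiff. Cox8a stood at 1253 and 1250 CPM in young cells and 1010 and 992 CPM in aged cells, with ratios of 0.806 (95% interval 0.796 to 0.815) and 0.789 (95% interval 0.780 to 0.798), and was the 1 nuclear subunit at least 20% lower in aged cells, on stiff only (background 29.5%). On soft no nuclear subunit was that much lower (background 28.1%), and Cox8a was just inside the limit. Cox6a1 stood at 296 and 299 CPM in young cells and 288 and 272 CPM in aged cells, a log2 difference of -0.037 on soft and -0.13 on stiff.

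The mitochondrial genes had median log2 differences of -0.020 on soft and -0.024 on stiff, which became 0.082 and 0.085 with median-ratio scaling, so that the direction of the group depends on scaling. At least 20% lower in aged cells were 4 of 13 on soft and 2 on stiff, against the same backgrounds of 28.1% and 29.5%. These were less abundant members. mt-Nd6, the complex I subunit read from the opposite strand to the other protein genes, stood at 31.4 and 27.2 CPM in young cells and 21.2 and 17.4 CPM in aged cells, with aged to young ratios of 0.613 (95% interval 0.564 to 0.666) and 0.585 (95% interval 0.538 to 0.637). mt-Atp8, which overlaps mt-Atp6 on the same transcript, stood at 152 and 131 CPM in young cells and 110.4 and 97.9 CPM in aged cells, with ratios of 0.684 (95% interval 0.660 to 0.709) and 0.715 (95% interval 0.690 to 0.741). For mt-Nd6 and mt-Atp8 the aged values lay below the young ones. Because mt-Atp8 shares a transcript with mt-Atp6, its UMIs may not count a separate molecule. mt-Nd5 and mt-Nd4l differed by -0.37 and -0.35 on the log2 scale on soft, and by -0.26 and -0.24 on stiff. The oxidase core genes mt-Co1, mt-Co2 and mt-Co3 ranged from -0.024 to 0.13 over both substrates. For mt-Atp6, mt-Co1, mt-Co2, mt-Co3, mt-Nd3 and mt-Nd4l, more than 50% of all 30-base stretches within 500 bases of an annotated transcript end are found in other annotated genes too, so their counts are less certain. The same holds for Atp5g1 among the nuclear members.

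For the nuclear subunits, the differences between substrates were smaller than those between ages. In young cells the nuclear subunits had a median log2 difference, stiff minus soft, of 0.022, with 47 of 72 higher (background 38.9%). In aged cells the median was 0.067, with 63 of 72 higher (background 37.1%), and weighting the libraries to equal shares of the 4 Myog levels described below lowered it to 0.021, with 48 higher. All-gene medians were -0.028 and -0.034. For the mitochondrial genes the stiffness medians, 0.053 in young and 0.023 in aged cells, were of about the size of the age medians or larger. No subunit gene of either genome was at least 25% higher or 20% lower at either age (backgrounds 0.182% higher and 0.597% lower in young cells, 0.432% and 1.77% in aged cells). The 3 largest differences belonged to Cox6a2, mt-Atp8 and Cox8b in young cells and to Cox6a2, mt-Nd6 and Cox7a1 in aged cells. Cox6a2 differed by 0.22 in young and 0.31 in aged cells and Cox8b by 0.20 in young and 0.21 in aged cells, while Cox7a1 differed by 0.069 in young and 0.22 in aged cells. mt-Nd6 differed by -0.18 in young and -0.23 in aged cells and mt-Atp8 by -0.21 in young and -0.17 in aged cells, lower on stiff at both ages. The other mitochondrial genes lay between -0.18 (mt-Nd5) and 0.10 (mt-Co3) in young cells.

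Cells were then divided by their level of Myog, which marks commitment to differentiation, at the quartiles of all kept cells, giving 4 levels in each library. A level is a range of 1 gene, not a cell type, and 631 cells lay within 1.1 times of a boundary. The share of cells at level 1 was 35.1% and 35.5% in young cells and 18.1% and 13.5% in aged cells, so Myog-low cells made up less of the aged libraries. Across levels 1 to 4 in the young soft library Pax7 averaged 158, 73.6, 9.96 and 7.10 CPM, and Acta1 107, 6611, 13944 and 12413 CPM. Median depth also differed with level, from 23217 to 31284 UMIs at level 1 against 33210 to 42400 at level 3, and its part in the results was not tested.

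Nuclear OXPHOS transcript was lowest in Myog-low cells, highest at the middle levels and lower again in the cells with most Myog, in every library. At level 1 the nuclear subunits summed to 29844 and 29417 CPM in young cells and 31176 and 32001 CPM in aged cells. At level 2 the sums were 43757 and 45913 CPM in young cells and 56484 and 57628 CPM in aged cells, and at level 3 47753 and 48539 CPM in young cells and 53616 and 53605 CPM in aged cells. At level 4 they were 38425 and 38745 CPM in young cells and 40781 and 40896 CPM in aged cells. The mitochondrial sum differed less between levels, and not in the same way at both ages. It was 48636 and 52093 CPM in young cells and 57190 and 58201 CPM in aged cells at level 1 and 61939 and 62692 CPM in young cells and 52916 and 54033 CPM in aged cells at level 3. It was higher at level 3 in both young libraries and lower in both aged ones, but the direction in aged cells depends on the processing. With median-ratio scaling the sums were 44262 and 47617 CPM in young cells and 52762 and 53450 CPM in aged cells at level 1 and 64277 and 65398 CPM in young cells and 56766 and 58367 CPM in aged cells at level 3, and without cells under 1% mitochondrial UMIs 49024 and 52173 CPM in young cells and 57398 and 58640 CPM in aged cells and 62913 and 63564 CPM in young cells and 58294 and 58973 CPM in aged cells. Under both of these settings the sum was higher at level 3 in all 4 libraries. With cells ordered by Acta1 in place of Myog, the top quartile against the bottom one gave 68 nuclear subunits called higher by the test described next (background 22.5%), with a median log2 difference of 0.68 against -0.44 over all genes. The fall at the top was smaller in that order: the nuclear sums were 48193 and 49581 CPM in young cells and 57035 and 57370 CPM in aged cells at the third Acta1 quartile and 47190 and 46993 CPM in young cells and 50472 and 53182 CPM in aged cells at the top one.

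**Figure D2:**
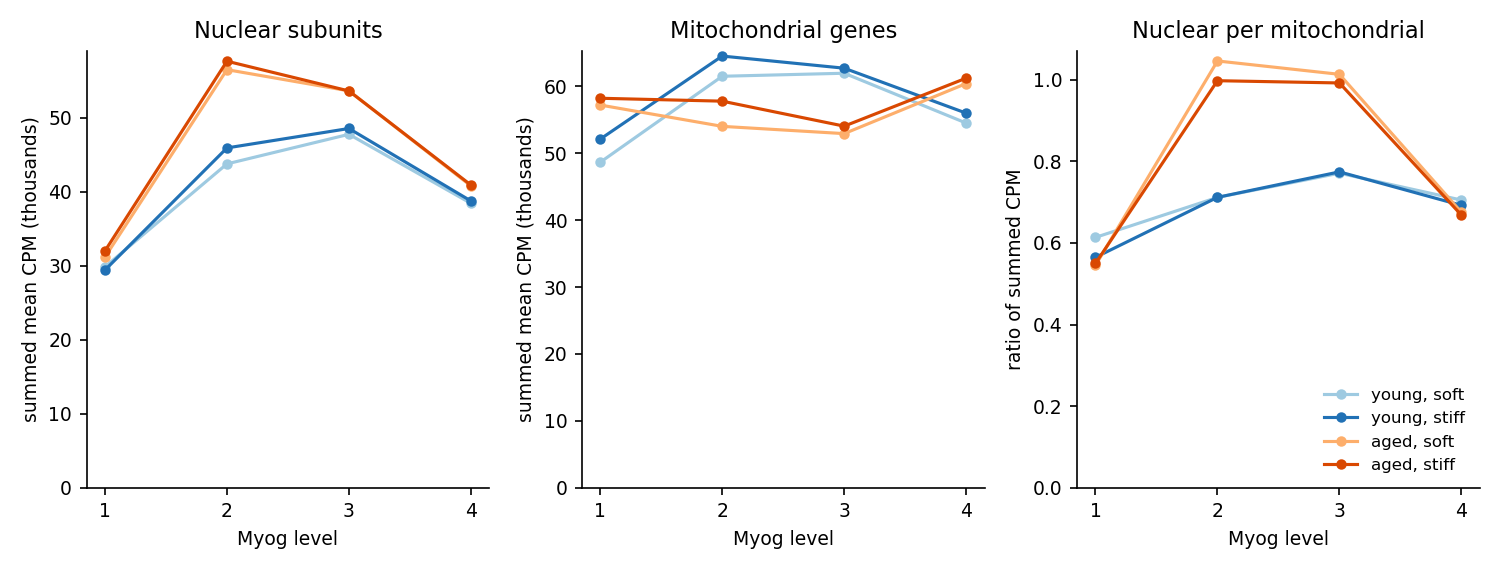
Summed mean CPM of the 75 nuclear subunits (left), of the 13 mitochondrial genes (middle) and their ratio (right) at Myog levels 1 to 4, with 1 line per library and no replicates. The nuclear sum peaks at level 2 or 3 in every library, and the ratio is 0.992 to 1.05 at levels 2 and 3 in aged cells and 0.712 to 0.774 in young cells.

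Because each library holds all levels, levels could be tested with the library as the replicate (limma with library as block, 4 libraries, Benjamini-Hochberg over all genes tested). From level 1 to level 3, 68 of 72 nuclear subunits rose (background 29.0% of 6872 genes) and 2 fell (background 57.8%), with a median log2 difference of 0.74 against -0.31 over all genes. From level 3 to level 4, 54 fell (background 23.6%) and 4 rose (background 33.4%), with a median of -0.32. Between the ends, level 4 against level 1, 64 were higher (background 27.3%) and 2 lower (background 54.6%), with a median of 0.39. Quartiles set within each library lowered that count from 64 to 28 (background 23.1% higher). From level 1 to level 3 by complex, 35 of 36 subunits rose in complex I (median 0.70), 8 of 8 in complex III (0.81), 12 of 14 in complex IV (0.83) and 13 of 14 in complex V (0.73). Of the 6 complex I assembly factors tested, 4 rose and 2 fell.

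**Figure D3:**
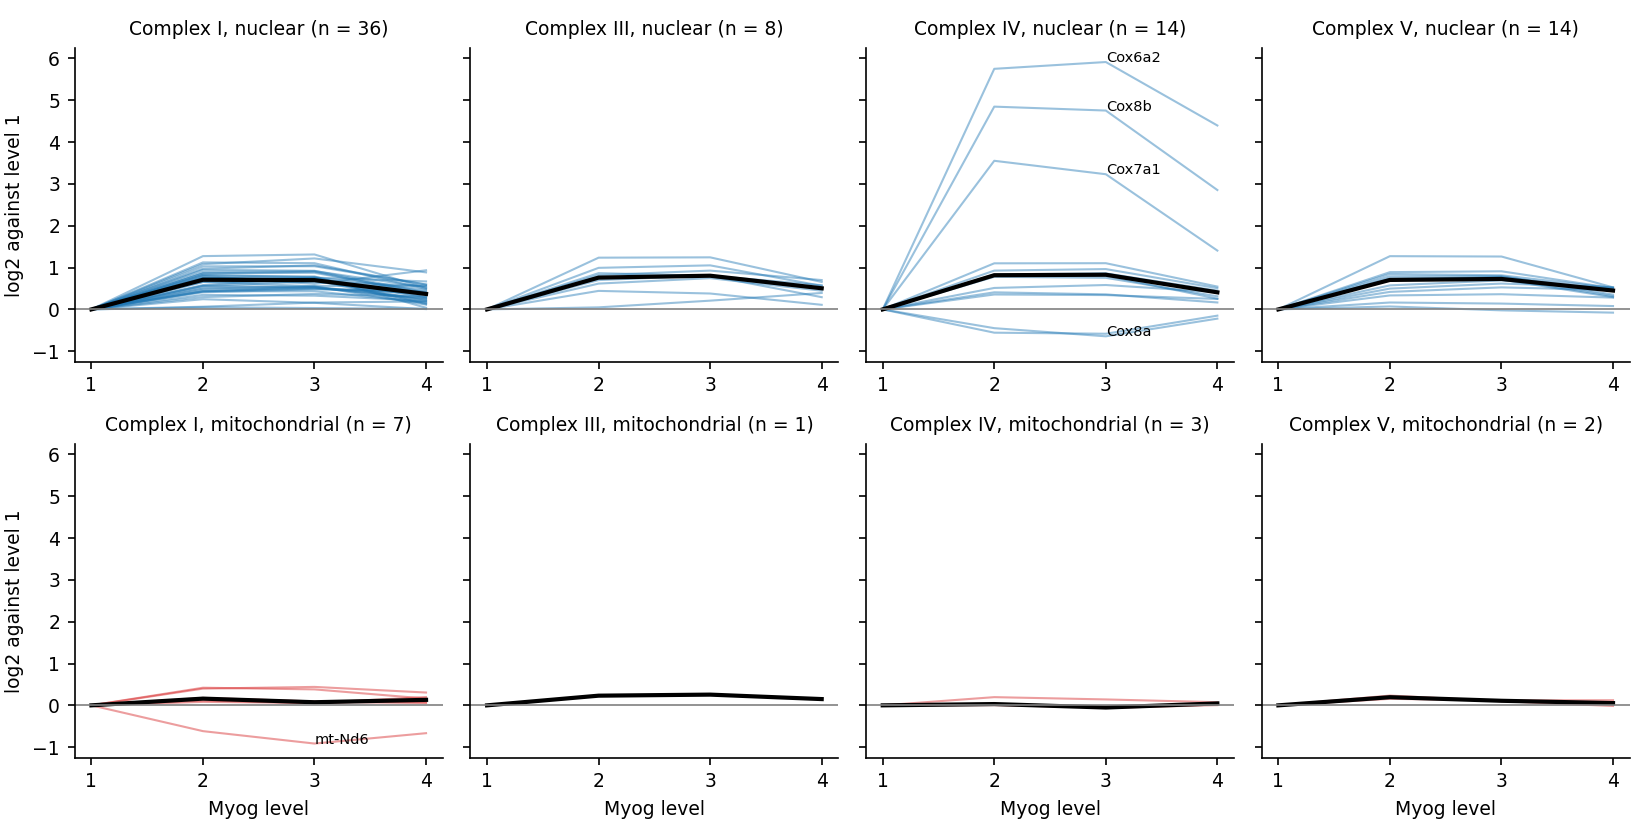
Log2 difference of each Myog level from level 1 (mean CPM plus 5), averaged over the 4 libraries, for every measured subunit gene, by complex (columns) and genome (nuclear above, mitochondrial below). Thin lines are genes and thick lines are medians. The nuclear medians rise to levels 2 and 3 and come down at level 4, the muscle isoforms Cox6a2, Cox8b and Cox7a1 lie far above the rest, and mt-Nd6 is the 1 mitochondrial gene that falls well below 0.

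Among complex I members Ndufs4, an accessory subunit of the NADH-oxidising arm, followed the group. At level 1 it stood at 101 and 101 CPM in young cells and 98.8 and 98.9 CPM in aged cells. At level 3 it stood at 245 and 239 CPM in young cells and 232 and 242 CPM in aged cells, and the difference was 1.22 (SE 0.072, adjusted p = 9.92e-09), and from level 3 to 4 it changed by -0.33 (SE 0.072, adjusted p = 0.00195). Ndufv3, an accessory protein of the flavoprotein part, instead rose to the end: it stood at 456 and 471 CPM in young cells and 356 and 417 CPM in aged cells at level 1 and 845 and 871 CPM in young cells and 737 and 802 CPM in aged cells at level 4. Its change from level 3 to 4 was 0.33 (SE 0.066, adjusted p = 0.00128), and Uqcrc2, a core subunit of complex III named after its values were seen, was the other such gene outside the ubiquitous oxidase isoforms, at 0.18 (SE 0.052, adjusted p = 0.00943). Ndufa9, an accessory subunit at the junction of the 2 arms, rose by 0.76 (SE 0.062, adjusted p = 1.36e-07) to level 3 and changed by -0.092 (SE 0.062, adjusted p = 0.223) from there to level 4, which did not pass.

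In complex III, Uqcrfs1, the Rieske iron-sulfur protein, stood at 205 and 205 CPM in young cells and 215 and 246 CPM in aged cells at level 1 and 390.3 and 396 CPM in young cells and 439.7 and 449 CPM in aged cells at level 3, a rise of 0.93 (SE 0.056, adjusted p = 1.09e-08). Uqcr11 rose by 1.24 (SE 0.072, adjusted p = 8.20e-09) and Uqcrb, a subunit near a quinone site, by 0.81 (SE 0.080, adjusted p = 7.98e-07). In complex V, Atp5e rose by 1.26 (SE 0.076, adjusted p = 1.07e-08) and changed from level 3 to 4 by -0.74 (SE 0.076, adjusted p = 1.08e-05). Atp5b, the catalytic beta subunit, rose by 0.62 (SE 0.036, adjusted p = 8.12e-09) and then changed by -0.084 (SE 0.036, adjusted p = 0.0629), which did not pass. The fall at level 4 was thus large for Atp5e and not detected for Atp5b.

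Of the 13 mitochondrial genes, 3 rose from level 1 to 3 (mt-Nd4, mt-Nd4l and mt-Cytb) (background 29.0%) and 1, mt-Nd6, fell (background 57.8%), with a median of 0.094. With median-ratio scaling 11 rose (background 37.7%) and the median was 0.30, while the nuclear median was 0.94. That scaling moved the all-gene median from -0.31 to -0.099. mt-Nd6 stood at 38.5 and 38.2 CPM in young cells and 35.3 and 34.0 CPM in aged cells at level 1 and 25 and 16.3 CPM in young cells and 13.9 and 14.4 CPM in aged cells at level 3, a change of -0.91 (SE 0.11, adjusted p = 5.98e-06). mt-Nd4 changed by 0.44 (SE 0.061, adjusted p = 1.59e-05) and mt-Cytb by 0.26 (SE 0.071, adjusted p = 0.00454).

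Within Myog levels, the age difference in nuclear subunits was largest at level 2. Cells of that level were not alike at both ages. Acta1 averaged 6611 and 8718.5 CPM in young cells and 11634 and 14466 CPM in aged cells there. Pax7 averaged 73.6 and 44.8 CPM in young cells and 23.3 and 17.6 CPM in aged cells. The part of this in the age difference was not tested. On soft the median log2 difference, aged minus young, was 0.072 at level 1, 0.39 at level 2, 0.18 at level 3 and 0.10 at level 4. On stiff the 4 values were 0.10, 0.34, 0.15 and 0.082. The mitochondrial genes took the opposite course at the middle levels, with medians on soft of 0.073, -0.25, -0.30 and 0.084. All 13 were lower in aged cells at levels 2 and 3 on both substrates when scaled to total UMIs. Over all genes, levels pooled, 35.3% on soft and 35.6% on stiff were higher in aged cells. The share and the median over all genes at single levels are not given here. The age-by-level term described below had mitochondrial medians of -0.38 at level 2 and -0.39 at level 3, against -0.17 and -0.042 over all genes. At level 2 the lower mitochondrial sum depends on scaling. Median-ratio scaling gave mitochondrial sums of 58714 and 64114 CPM in young cells and 58188 and 64509 CPM in aged cells, nearly equal on soft and slightly higher in aged cells on stiff. The nuclear to mitochondrial ratio at level 1 was 0.614 and 0.565 in young cells and 0.545 and 0.550 in aged cells. At level 2 it was 0.712 and 0.712 in young cells and 1.05 and 0.998 in aged cells, and at level 3 0.771 and 0.774 in young cells and 1.01 and 0.992 in aged cells. At level 4 it was 0.705 and 0.692 in young cells and 0.675 and 0.668 in aged cells, so that the aged ratios lay above the young ones at levels 2 and 3 and, by less, below them at levels 1 and 4. With quartiles set within each library the level 1 ratios were 0.611 and 0.566 in young cells and 0.634 and 0.715 in aged cells, and the direction at that level turned. Weighting the libraries to equal shares of the levels lowered the overall nuclear medians to 0.22 on soft and 0.18 on stiff, against all-gene medians of -0.089 and -0.068. The number of nuclear subunits at least 25% higher fell to 7 and 9 of 72. The share of all genes that much higher under this weighting is not given here, so no excess is read from these counts.

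**Figure D4:**
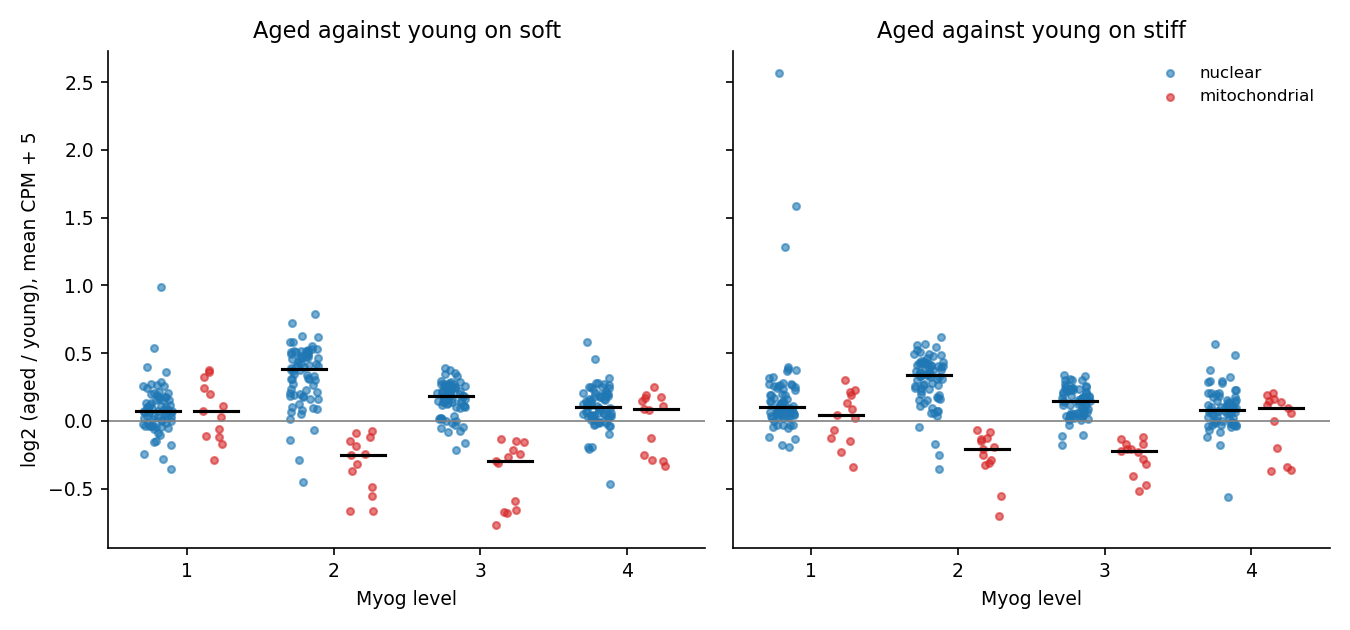
Log2 difference between aged and young cells (mean CPM plus 5) at each Myog level for the measured nuclear and mitochondrial subunit genes, on soft (left) and stiff (right). Points are genes and bars are medians. At levels 2 and 3 the nuclear genes lie mostly above 0 and every mitochondrial gene below it on this scale of total UMIs (at level 2 the mitochondrial sums no longer lie lower on stiff with median-ratio scaling), and the 3 high points at level 1 on stiff are Cox6a2, Cox8b and Cox7a1.

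The change of the age difference with level was tested by an age-by-level term (limma, library as block), in which the soft and the stiff library of an age stand in as replicates. Between levels 1 and 2, 44 of 72 nuclear subunits rose more in aged cells (background 10.0%), and 3, Cox6a1, Cox8a and Cox7a1, rose less or fell more on the log2 scale (background 36.3%). Cox7a1 stood at only 2.47 and 2.67 CPM in young cells and 9.86 and 13.6 CPM in aged cells at level 1, so its term leans on values near the pseudocount of 5 CPM. At level 2 it stood at 102 and 113 CPM in young cells and 149 and 150 CPM in aged cells. By the same age-by-level term 12 of 13 mitochondrial genes were lower, against that background of 36.3%. Leaving out 1 library at a time gave median terms of 0.20 to 0.27 for the nuclear subunits and -0.40 to -0.27 for the mitochondrial genes. The all-gene medians were then -0.19 to -0.14. Median-ratio scaling left 58 nuclear calls (background 19.8% higher) and 6 mitochondrial ones (background 24.0% lower). Quartiles set within each library left 9 (background 4.13%) and 11 (background 39.9%). They move cells from level 2 to level 1 in the aged libraries and from level 1 to level 2 in the young ones. Uqcrq had the term 0.48 (SE 0.057, adjusted p = 5.74e-05), and Ndufc1 0.40 (SE 0.074, adjusted p = 0.000871). Both were named for their age difference in these same libraries, so these p-values are not independent of that choice. mt-Co1, the catalytic core of the oxidase, had -0.56 (SE 0.046, adjusted p = 9.64e-06). It stood at 7051 and 7455 CPM in young cells and 9066 and 9213 CPM in aged cells at level 1 and 8827 and 9170 CPM in young cells and 7430 and 7949 CPM in aged cells at level 2. On this scale of total UMIs it was higher at level 2 than at level 1 in both young libraries and lower in both aged ones, whereas with median-ratio scaling the mitochondrial sum of the aged libraries was higher at level 2.

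Between levels 1 and 3, 12 mitochondrial genes were lower by this term (background 9.75%), mt-Co1 by -0.65 (SE 0.046, adjusted p = 3.74e-06). The median mitochondrial term was -0.31 without the young soft library, -0.49 without the young stiff one, -0.32 without aged soft and -0.36 without aged stiff. Of the nuclear subunits 6 were higher (background 4.92%) and 2, Cox8b and Cox7a1, lower (background 9.75%). Both of these had low values at level 1, with Cox8b at 10.3 and 10.6 CPM in young cells and 17.2 and 41.7 CPM in aged cells. Without those libraries in the same order 2, 4, 0 and 2 were higher, and with quartiles set within each library none was higher and 29 were lower.

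The isoform make-up of complex IV differed along Myog levels. The share of Cox6a2 in the UMIs of Cox6a2 and Cox6a1 together was 61.8% and 65.3% in young cells and 76.8% and 80.8% in aged cells. At level 1 its share was 2.74% and 1.37% in young cells and 2.20% and 17.0% in aged cells, and at level 2 73.2% and 78.8% in young cells and 86.3% and 87.7% in aged cells. At level 3 it was 80.7% and 82.0% in young cells and 84.2% and 84.8% in aged cells, and at level 4 51.9% and 57.7% in young cells and 59.9% and 63.5% in aged cells. The aged stiff library stood apart at level 1 (95% exact binomial interval 15.6% to 18.5%), where Acta1 averaged 107 and 57.9 CPM in young cells and 595 and 618 CPM in aged cells. Cox6a2 itself rose from level 1 to 3 by 5.92 (SE 0.30, adjusted p = 2.16e-09) and from 3 to 4 changed by -1.52 (SE 0.30, adjusted p = 0.000977).

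The Cox8b share of Cox8b and Cox8a was 0.634% and 0.618% in young cells and 0.997% and 3.99% in aged cells at level 1. It was 28.7% and 34.1% in young cells and 47.1% and 46.3% in aged cells at level 2 and 37.1% and 39.4% in young cells and 39.9% and 41.0% in aged cells at level 3, then 12.8% and 15% in young cells and 11.8% and 12.0% in aged cells at level 4. At level 2 the aged libraries lay above the young ones, and at level 4 below them. The Cox7a1 share of Cox7a1 and Cox7a2 was smaller, 9.52% and 9.48% in young cells and 10.9% and 10.7% in aged cells at level 2 and 2.45% and 2.78% in young cells and 3.94% and 4.19% in aged cells at level 4. The ubiquitous forms Cox8a and Cox6a1 were the 2 nuclear subunits that fell from level 1 to 3, with changes of -0.64 (SE 0.055, adjusted p = 2.14e-07) and -0.58 (SE 0.078, adjusted p = 1.24e-05), and both rose again from 3 to 4, by 0.42 (SE 0.055, adjusted p = 5.53e-05) and 0.43 (SE 0.078, adjusted p = 0.000569). Cox7a2 rose with the rest, by 0.75 (SE 0.063, adjusted p = 1.75e-07). The age difference in the muscle isoforms was smaller at equal shares of Myog levels, with weighted log2 differences on soft and stiff of 0.52 and 0.43 for Cox6a2, 0.39 and 0.37 for Cox7a1 and 0.25 and 0.074 for Cox8b.

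**Figure D5:**
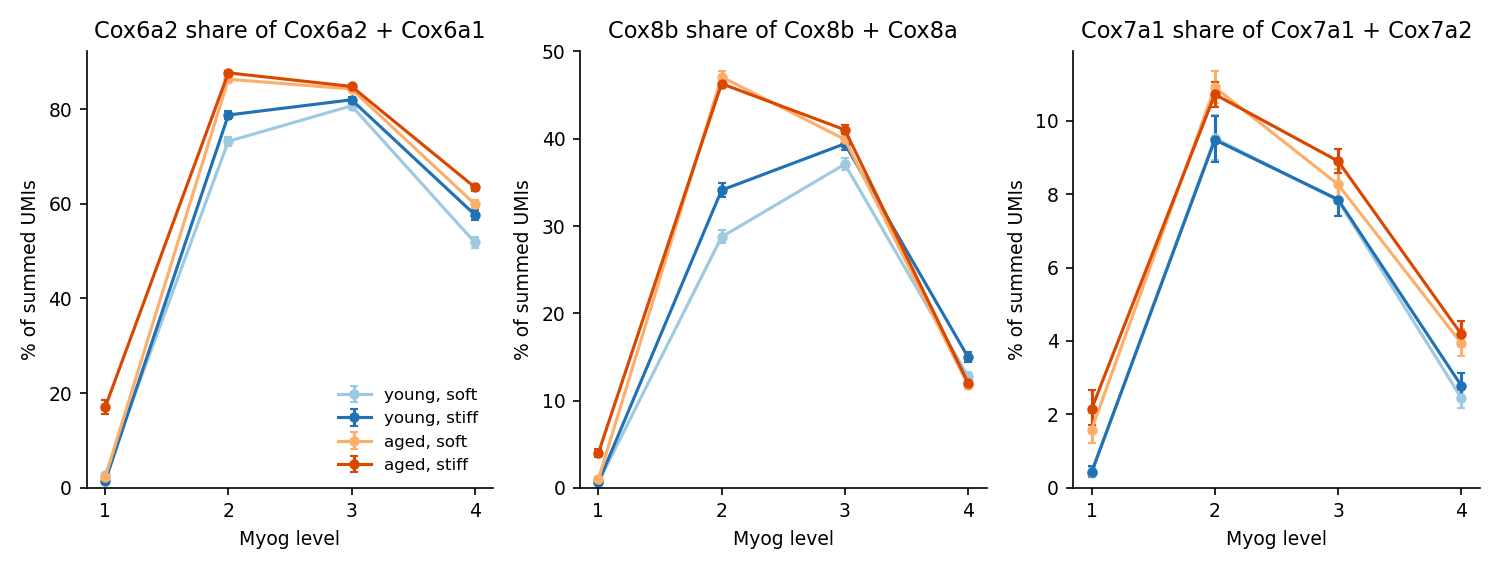
Share of the summed UMIs of an isoform pair that belongs to the muscle isoform, at Myog levels 1 to 4, for Cox6a2 (left), Cox8b (middle) and Cox7a1 (right), each with an axis of its own. Lines are libraries and bars are exact binomial intervals (95%, counting error only). All 3 shares are low at level 1, highest at level 2 or 3 and lower at level 4 in every library.

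The other pairs held almost none of the less common form. Cox4i2, the hypoxia-linked form of subunit IV, Cox6b2, the testis form of subunit VIb, and Ndufa4l2 made up at most 0.0490%, 0.270% and 0.147% of their pair in any library, and their partners Cox4i1, Cox6b1 and Ndufa4 rose from level 1 to 3 by 0.36, 0.85 and 0.34 (limma adjusted p = 3.79e-05, 9.04e-08 and 4.44e-06). The 3 genes for the membrane ring (c subunit) of ATP synthase, which encode the same mature protein, moved apart. The share of Atp5g2 in the 3 was 40.5% and 42.2% in young cells and 43.9% and 43.2% in aged cells at level 1 and 29.7% and 29.9% in young cells and 29.0% and 29.9% in aged cells at level 3, as Atp5g1 and Atp5g3 rose by 0.81 (SE 0.057, adjusted p = 3.61e-08) and 0.77 (SE 0.051, adjusted p = 2.42e-08) and Atp5g2 changed by -0.023 (SE 0.035, adjusted p = 0.542).

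From level 1 to 3 Cox8b rose and Cox8a fell, while Cox7a1 and Cox7a2 both rose, Cox7a1 by more in proportion. For these 2 pairs of muscle and ubiquitous forms, which have an entry for both members, the sequences before the start sites are shown. They are the 250 bases upstream of each gene's start in RefSeq (build GRCm38.p6), 5′ to 3′ on the gene's strand: Cox8b at chr7:140900447-140900696 (minus strand), Cox8a at chr19:7217617-7217866 (minus strand), Cox7a1 at chr7:30183921-30184170 (plus strand) and Cox7a2 at chr9:79759854-79760103 (minus strand). Capitals mark matches, on either strand, to any of 4 motifs: the core GCGCANGCG of the respiratory factor NRF-1, the ETS core CCGGAAG bound by GABP, the E-box CAGCTG that myogenic factors bind, and the MEF2 motif.
Cox8b: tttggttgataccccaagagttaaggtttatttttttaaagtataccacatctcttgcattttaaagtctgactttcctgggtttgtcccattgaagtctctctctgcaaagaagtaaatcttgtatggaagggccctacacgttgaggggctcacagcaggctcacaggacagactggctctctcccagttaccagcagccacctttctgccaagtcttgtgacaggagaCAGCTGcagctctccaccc
Cox8a: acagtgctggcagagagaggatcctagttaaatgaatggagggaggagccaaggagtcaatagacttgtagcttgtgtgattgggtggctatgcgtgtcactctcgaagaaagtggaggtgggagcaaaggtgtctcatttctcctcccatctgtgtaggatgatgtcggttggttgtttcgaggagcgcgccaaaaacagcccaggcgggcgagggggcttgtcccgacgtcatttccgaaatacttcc
Cox7a1: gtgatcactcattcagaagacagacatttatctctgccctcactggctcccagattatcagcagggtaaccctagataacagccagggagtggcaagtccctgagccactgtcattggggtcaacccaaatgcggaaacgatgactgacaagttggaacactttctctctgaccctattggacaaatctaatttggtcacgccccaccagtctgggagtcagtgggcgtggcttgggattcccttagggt
Cox7a2: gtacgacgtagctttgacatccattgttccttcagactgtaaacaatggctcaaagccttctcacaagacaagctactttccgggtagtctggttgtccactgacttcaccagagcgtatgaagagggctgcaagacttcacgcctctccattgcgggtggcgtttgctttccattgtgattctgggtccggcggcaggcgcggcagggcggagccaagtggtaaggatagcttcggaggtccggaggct

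Cox8b held 1 match, an E-box whose first base lies at position -19 from the start, and the other 3 windows held none of the 4 motifs. Of 75 nuclear subunit genes 61 matched the table by symbol. Their windows held the NRF-1 core in 12 of 61 (19.7%), the ETS core in 11 of 61 (18%), the E-box in 6 of 61 (9.84%) and the MEF2 motif in 0. Over all 27025 symbols in the table the shares were 5.86%, 7.83%, 14.7% and 3.42%. Over the 5253 genes with an entry that were tested by Myog level they were 15.4%, 17.8%, 14.0% and 2.08%. Matches are descriptions of these letters only.

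Across the single cells of a library, the nuclear and mitochondrial sums were positively related in young cells and negatively in aged cells. Spearman's rho between them was 0.31 and 0.24 in young cells and -0.24 and -0.23 in aged cells (1333 to 1738 cells per library). The cells of a library share its depth, scaling and batch, and the 2 sums are parts of 1 total, so these are descriptions. Without cells under 1% mitochondrial UMIs the values were 0.34 and 0.25 in young cells and -0.13 and -0.15 in aged cells, and the relation in young cells varied with Myog level. Among those remaining cells rho was 0.21 and 0.18 in young cells and -0.12 and -0.093 in aged cells at level 1 and 0.41 and 0.33 in young cells and -0.24 and -0.21 in aged cells at level 2. It was 0.16 and 0.079 in young cells and -0.25 and -0.24 in aged cells at level 3 and 0.048 and -0.049 in young cells and -0.20 and -0.18 in aged cells at level 4, where the young values lay near 0 on either side. Aged libraries held more cells under 1%: 21 and 13 in young against 83 and 109 in aged cells (soft and stiff). In them the nuclear sum averaged 47010 and 45950 CPM in young cells and 65774 and 62901 CPM in aged cells, and in the remaining cells 38362 and 38803 CPM in young cells and 45544 and 48094 CPM in aged cells. The nuclear-retained RNA Malat1 was lower in them, 6776 and 5119 CPM in young cells and 1835 and 2164 CPM in aged cells, against 16002 and 16330 CPM in young cells and 11819 and 10438 CPM in aged cells for the remaining cells. Without them the nuclear to mitochondrial ratio at level 2 was 0.678 and 0.702 in young cells and 0.913 and 0.907 in aged cells, and the ages remained apart.

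Other genes of energy metabolism and mitochondria were compared between the ends of the Myog range (level 4 against level 1, limma, background 27.3% higher and 54.6% lower). In complex II, 4 of 4 rose and 0 fell, with Sdhd at 0.49 (adjusted p = 3.57e-05). Cytochrome c (Cycs), the electron carrier between complexes III and IV, and cytochrome c1 (Cyc1), a catalytic subunit of complex III outside the symbol rule, both rose, by 0.49 (adjusted p = 2.25e-05) and 0.59 (adjusted p = 9.13e-06). Among ATP synthase genes outside the symbol rule, Usmg5, a small membrane subunit, rose by 0.77 (adjusted p = 1.90e-06), whereas Atpif1, the inhibitor of the enzyme's reverse reaction, changed by -0.99 (adjusted p = 1.41e-06). Of the other assembly factors 10 of 28 rose and 5 fell, with the copper chaperone Cox17 at 0.79 (adjusted p = 5.07e-06) and Cox19 at 0.81 (adjusted p = 4.39e-06). In the pyruvate dehydrogenase and citric acid cycle list 10 of 15 rose and 2 fell, with Pdhb at 0.85 (adjusted p = 6.59e-06), and in glycolysis 10 of 16 rose and 5 fell, with the muscle enzymes Pgam2 at 4.11 (adjusted p = 2.05e-05) and Pfkm at 2.72 (adjusted p = 2.23e-06).

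Of the mitochondrial ribosome genes 34 of 76 rose and 20 fell, with Mrpl20 at -0.70 (adjusted p = 3.41e-06). Of the regulators of mitochondrial biogenesis 4 of 11 rose and 5 fell, with the coactivator Ppargc1b at 0.95 (adjusted p = 2.10e-05) and the mitochondrial helicase Twnk at 0.73 (adjusted p = 3.88e-05). Of the genes for mitochondrial RNA processing and stability 7 of 11 rose and 1 fell, with Lrpprc at 0.64 (adjusted p = 0.000572), and of the outer membrane and import genes 7 of 15 rose and 1 fell. Between ages, the median log2 differences on soft and stiff were 0.099 and 0.16 for complex II, 0.073 and 0.093 for the mitochondrial ribosome, 0.072 and 0.047 for glycolysis and -0.15 and -0.14 for the biogenesis regulators, against 0.30 and 0.33 for the nuclear subunits. Over all genes the medians were -0.12 and -0.13, near those of the biogenesis regulators. The differences between lists were not tested.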

How the data were processed

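Single-cell RNA of 4 libraries was measured with a 3 prime droplet kit, per the labels' protocols. The deposited values are log2(CPM + 1) per cell for 13772 genes; the submitters' processing notes name Cell Ranger 6.1.2 and Partek without their roles, and the genome build and aligner are not given in the sources used here. The smallest step of each cell gave back UMIs, whole within 0.05 for 99.95% to 99.96% of values. Cells were kept if they had 500 or more detected genes and no more than 20% of UMIs from mitochondrial genes, and doublets were not called. The level of a gene in a library is its mean CPM over cells, measured at 20 CPM or more in either library compared. Group differences are log2 ratios after adding a pseudocount of 5 CPM, which understates changes of low genes, and have no test; ratios of summed UMIs have exact binomial 95% intervals for counting error only.

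Myog levels are quartiles of all kept cells (lower to upper, 1 to 4). Mean CPM per library and level, as log2(CPM + 5), was tested with limma 3.58.1 (R 4.3.3) with library as block, an adjusted p under 0.05 counting as called. The step was tested on simulated data. Level 3 and level 4 against 3 contrasts and the age-by-level terms were chosen after seeing the data. Tables used Python 3.11.15, numpy 2.4.6, pandas 2.3.3 and SciPy 1.17.1. The members and lists were chosen with earlier results of these data known. Named genes are the isoform pairs, the mitochondrial genes and the member with the highest level in each complex. Per complex the 3 nuclear subunits with the largest Myog difference and the 2 with the largest age difference were added. So were the 3 largest stiffness differences at each age. Of each other list the 2 with the largest Myog difference were picked, but not all of these are printed. Alternatives were other scalings, pseudocounts, filters, cell sets and Myog divisions, and leaving out each library.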

Additional observations from a re-analysis of the deposited data

Results flagged for a closer look

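The age difference changed with Myog level, by the age-by-level term in which the soft and stiff libraries of an age stand in for replicates. Between levels 1 and 2, 44 of 72 nuclear subunits had a higher term (background 10.0% of all genes tested) and 3 a lower one (background 36.3%), and 12 of 13 mitochondrial genes had a lower one. Quartiles set within each library left 9 nuclear calls (background 4.13%), and median-ratio scaling left 6 mitochondrial calls (background 24.0%). Between levels 1 and 3, 6 nuclear subunits had a higher term (background 4.92%) and 2 a lower one (background 9.75%), shares near or below the background, and 12 mitochondrial genes had a lower one. Quartiles set within each library left 0 nuclear subunits higher (background 8.32%) and 29 lower (background 13.9%) at that level. At level 2 aged cells also held more Acta1 and less Pax7 than young ones, and the part of this was not tested. The test was chosen after seeing the data.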

How the results depend on the processing

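The labels give no replicate numbers, so no groups were paired by number. Myog levels were compared within libraries, and without the library block 58 nuclear subunits were higher at level 4 than 1 (background 24.5%). Of the values that answer a comparison, 253 under an alternative stayed within their limits and 29 moved, and none of these changed a nuclear median's sign. With median-of-ratios scaling the nuclear medians were 0.052 and 0.10 for stiffness in young and aged cells, 0.40 and 0.44 for age on soft and stiff, 0.53 for Myog level 4 against 1 and 0.94 for level 3 against 1. The mitochondrial age medians were then 0.082 and 0.085, against all-gene medians of -0.026 and -0.024. Of these genes 2 and 1 were at least 20% lower, and 55 nuclear subunits on stiff were at least 25% higher. At level 2, 6 mitochondrial genes had a lower age term (background 24.0%). With libraries weighted to equal Myog levels the nuclear medians were 0.22 and 0.18 for age and 0.021 for stiffness in aged cells. The all-gene medians for age were then -0.089 and -0.068. In aged cells 7 and 9 subunits were at least 25% higher, and the log2 difference of the nuclear to mitochondrial ratio on stiff was 0.20. Summed UMIs on soft gave 0.36 for the nuclear median and 0.37 for that ratio. Without cells under 1% mitochondrial UMIs 2 mitochondrial genes were at least 20% lower on soft, and the mitochondrial median on stiff was 0.050. A filter of 50 CPM, which drops mt-Nd6, left 1 on stiff. The shares of all genes past the 25% and 20% limits are not given for these alternatives. Counts past those limits here therefore stand without a background.

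For Myog level 4 against 1, quartiles within each library gave 28 subunits called higher (background 23.1%) and a median of 0.23. A division into 3 gave a median of 0.28 and Acta1 quartiles 0.68, where Tomm20 reversed to -0.077. For the contrasts chosen after seeing the data, quartiles within each library gave a level 3 median of 0.57. They left 9 nuclear age terms called higher at level 2 (background 4.13%). Age terms at level 3 reversed with them, to -0.27 (nuclear median), -0.25 (Atp5g1), -0.073 (Uqcrb) and -0.29 (Uqcrq). The cause of these changes was not tested. Without each library in turn, 62 to 64 subunits were higher at level 4 than 1 (background 25.5% to 25.9%). The nuclear median age term at level 2 was then 0.20 to 0.27. Leaving out a library leaves 1 age with 1 library, which is then assumed to vary like the others. The p-values measure only the spread between these 4 libraries, and mt-Nd6 has the fewest UMIs of the mitochondrial genes.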
